A study of Arabidopsis thaliana with 6 samples.

Results

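Asymmetric divisions in the leaf epidermis of Arabidopsis thaliana leave a small meristemoid and a larger stomatal lineage ground cell, and a protein complex at one side of the cell cortex sets this asymmetry. The genes described here encode 2 proteins of that complex, BASL and POLAR, and the 4 phosphatases of the BSL family, BSU1, BSL1, BSL2 and BSL3. They were taken by locus from the deposited count tables: AT5G60880 (BASL), AT4G31805 (POLAR), AT1G03445 (BSU1), AT4G03080 (BSL1), AT1G08420 (BSL2) and AT2G27210 (BSL3), which is 6 of 33602 loci. Of these, 5 passed the filter on low counts and were tested. BSU1 did not, and its counts are given below.

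The data came from 6 libraries of sorted cells, 2 from each of 3 transgenic lines in the Columbia background. The lines carried a YFP fusion of BRX from the BRX promoter (BRXp:BRX-YFP), of BRXL2 from the BRXL2 promoter (BRXL2p:BRXL2-YFP), or of myrBRX, given in the labels as myrBRXp:myrBRX-YFP. All were true leaves at 9 days post germination, after 2 days of cold and growth at 22 °C with 16 h of light, and about 20000 sorted cells went into each RNA. The sources used here did not give the sorting gate or the number of independent transgenic events per line, and no line without a transgene was analysed here. Libraries are named by label and number (BRX 1, BRX 2 and so on).

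As background, BASL (BREAKING OF ASYMMETRY IN THE STOMATAL LINEAGE) forms a cortical crescent, needs BRX family proteins to do so, and recruits the MAP kinase kinase kinase YODA. POLAR is a scaffold that brings GSK3-like kinases such as BIN2 to the same site. BSU1 and its BSL relatives pair Kelch repeats with a protein phosphatase domain. They were first known from brassinosteroid signalling, where they inactivate BIN2, and they also join the polarity complex, where they act on BIN2 and on YODA signalling.

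The libraries held 25817906 to 42113178 counts. Levels are given as CPM, that is, each count relative to its library's size after TMM adjustment for composition. A count of 0 allows up to 3 counts, which corresponds to 0.0638 to 0.0992 CPM. Chloroplast and mitochondrial loci held 0.558% to 5.34% of the counts. Of 9 listed epidermal markers, 9 had counts in every library. Of 15 stomatal lineage regulators, 13 had counts in every library; MUTE was at 0 in BRX 2, and EPFL9 was at 0 in BRX 2 and BRXL2 1. The transcript of BRX itself averaged 8.92 ± 3.98 CPM in BRX 1 and BRX 2, under its 27.3 ± 6.45 CPM in BRXL2 and its 52.5 ± 28.5 CPM in myrBRX (SD, n = 2). The label BRX is therefore used below as a label only, and each direction that involves those libraries or myrBRX carries that doubt. BRX 1 also stood apart from BRX 2: across genes, its log2 CPM correlated at 0.737 with BRX 2, whereas BRX 2 correlated at 0.8 with myrBRX 1. The value of 0.737 was still the highest of BRX 1 with any library. Replicates were not close in BRXL2 either, at 0.765, near the 0.764 between BRX 2 and BRXL2 2, while the myrBRX pair stood at 0.88.

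Because the counting program's treatment of reads that align to several places was not given, the sequences of the phosphatases were compared first. In the RefSeq transcripts of the TAIR10.1 annotation, the coding sequences of BSL2 and BSL3 were identical at 86.8% of 3018 aligned bases. BSL1 shared 63.9% with BSL2 and 63.9% with BSL3, and BSU1 was nearest to BSL1, at 71.0%. Of all stretches of 50 bases, 0.89% of those in the BSL2 transcript occurred exactly in BSL3, and 0% in BSL1 or BSU1. The stretch below holds the longest run identical in BSL2 and BSL3, 77 bases, with 12 bases on either side, and is shown because it is where these counts are hardest to tell apart. It covers coding bases 2590 to 2690 of BSL2, counted from the A of the start codon, and capitals mark bases that differ from BSL2.
BSL2: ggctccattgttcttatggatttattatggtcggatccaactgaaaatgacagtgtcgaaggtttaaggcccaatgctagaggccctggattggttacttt
BSL3: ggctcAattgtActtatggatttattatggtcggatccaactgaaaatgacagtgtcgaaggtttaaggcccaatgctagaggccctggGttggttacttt
BSL1: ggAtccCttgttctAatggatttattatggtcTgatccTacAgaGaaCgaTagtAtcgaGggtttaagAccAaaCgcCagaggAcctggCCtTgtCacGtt
BSU1: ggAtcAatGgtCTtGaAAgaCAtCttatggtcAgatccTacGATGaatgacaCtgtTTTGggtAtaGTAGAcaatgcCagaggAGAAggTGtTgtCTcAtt
BSL3 differed from BSL2 at 3 of the 101 bases, BSL1 at 21 and BSU1 at 39.

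Some annotated neighbours overlap the members on the opposite strand: AT4G31810 overlaps POLAR, and AOP1 (AT4G03070) and the noncoding AT4G04425 overlap BSL1. Whether strand was used in counting was not given, so reads in the overlaps cannot be told apart. AT4G31810 shares 310 bases with the POLAR gene, whose transcript has 1531. It held 2020 and 950 counts in BRX 1 and BRX 2, 1246 and 1465 in BRXL2, and 380 and 408 in myrBRX. POLAR held 24285 and 2670, 1443 and 1499, and 5403 and 1927 counts in the same libraries. AT4G04425 shares 277 bases with the BSL1 gene and was not among the counted loci. AOP1 shares 44 bases with the BSL1 gene, whose transcript has 3258. It held 1798 counts in BRXL2 2, where BSL1 was highest, and 18 to 75 in the other 5 libraries, with 75 in BRXL2 1, where BSL1 was second highest. The part of these reads in the values below was not tested.

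POLAR was the most abundant of the 6 genes per kilobase of transcript in 6 of 6 libraries, at 20.0 to 484 CPM per kb. BASL stood above all phosphatases in 3 of 6 libraries, at 6.83 to 48.4 CPM per kb. BSL1 reached 1.94 to 16.6, BSL2 1.08 to 9.10 and BSL3 3.28 to 10.9 CPM per kb, and the order of these 3 changed between libraries. The highest library exceeded the lowest by 8.55 times for BSL1, 8.44 for BSL2 and 3.33 for BSL3. BSL1 was the highest phosphatase in 3 libraries, BSL3 in 2 and BSL2 in 1. BSU1 held 2 counts in BRX 1 and 0 in each of the other 5 libraries. BSL1, BSL2 and BSL3 held 208 to 2019 counts in the same libraries, so BSU1 was not detectable at a level near that of its relatives.

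**Figure D1:**
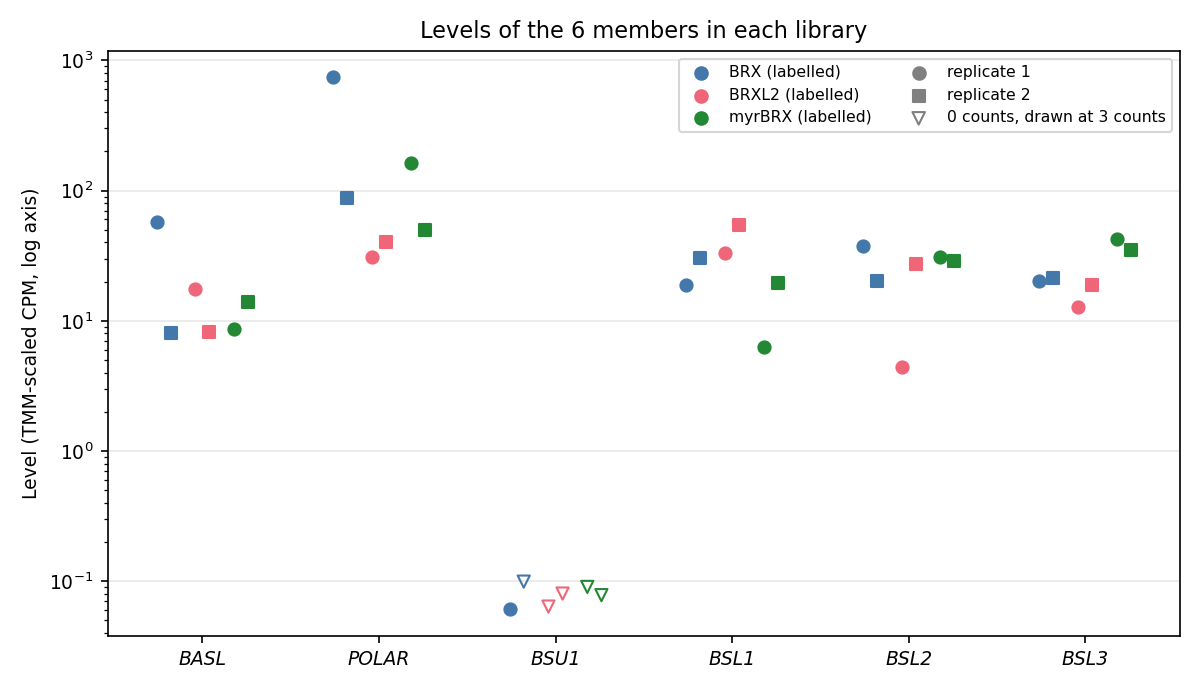
Level of each of the 6 genes (TMM-scaled CPM, log axis) in each library, coloured by labelled line, with circles for replicate 1 and squares for replicate 2. BRX 1 stands highest for POLAR (741 CPM) and for BASL (57.4 CPM), the 3 BSL genes lie between 4.42 and 54.0 CPM, and BSU1 lies at or under the level of 3 counts in all libraries (open triangles are 0 counts).

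No member passed the test in any comparison. With edgeR's quasi-likelihood test and Benjamini-Hochberg adjustment over 18174 genes (threshold 0.05), 0 of 5 tested members were called between BRXL2 and the libraries labelled BRX, where 0.0935% of all genes were called. The same count was 0 of 5 between myrBRX and the libraries labelled BRX (0% of all genes) and 0 of 5 between myrBRX and BRXL2 (0.0495%). A test for any difference among the 3 lines called 0 of 5, against 0.226% of all genes. At an unadjusted p under 0.05, edgeR had 1 of 5 members, POLAR, between BRXL2 and the libraries labelled BRX (8.85% of all genes) and in the test of any difference (14.6%). It had 0 of 5 in the other comparisons (14.2% and 12.4%). DESeq2 called 1 of 5, again POLAR, between BRXL2 and the libraries labelled BRX, where it called 3.9% of 17116 genes. In its test of any difference it also called 1 of 5, POLAR, and 8.67% of 16764 genes. DESeq2 called 0 of 5 between myrBRX and the libraries labelled BRX (8.72% of 17116) and between myrBRX and BRXL2 (6.71% of 17116). Without the filter, edgeR took 22526 genes and also called POLAR alone of the members in the first comparison (1.79% of these genes) and for any difference (6.32%). It called 0 of 5 in the others (3.21% and 2.92%). Limma-voom called 0 members; at an unadjusted p under 0.05 it had 1 of 5 in the first comparison (7.21% of all genes), 0 in the second (14.1%), 1 in the third (12.6%) and 0 for any difference (12.3%). The biological coefficient of variation was 0.884, so a missed threshold here does not show that lines were alike. Separate plantings are not stated for the 2 libraries of a line, and the p-values thus reflect the spread among these 6 samples, part of which may be technical.

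POLAR had the widest range of the set, 24.2 times between its highest and its lowest library. It stood at 741 CPM in BRX 1 and 88.3 in BRX 2, at 30.7 and 40.1 in the BRXL2 libraries, and at 163 and 50.2 in the myrBRX libraries. Both BRXL2 libraries were thus below the other 4, while the libraries labelled BRX and those of myrBRX overlapped. The line means were 415 ± 462 for BRX, 106 ± 79.5 for myrBRX and 35.4 ± 6.68 for BRXL2 (SD, n = 2), so the spread within BRX exceeded its distance from either other line. In sorted bulk samples, fewer cells that express a gene and less RNA per cell cannot be told apart.

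The log2 fold change of POLAR between BRXL2 and the libraries labelled BRX was -3.55 ± 1.12 (SE; adjusted p = 0.426, edgeR). DESeq2 gave an adjusted p of 0.0149, and edgeR without the filter on low counts gave 0.0358, whereas the adjusted p lay between 0.162 and 0.833 when 1 library was left out. Without BRX 1 the value was -1.32, and without BRX 2 it was -4.39. For myrBRX against the libraries labelled BRX it was -1.96 ± 1.05 (adjusted p = 0.404), with values of -3.05 to 0.27 when 1 library was left out, the highest without BRX 1. For myrBRX against BRXL2 it was 1.59 ± 1.04 (adjusted p = 0.559), and it stayed above 0 with any 1 library left out (0.50 to 2.19).

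BASL, which forms the crescent, stood at 57.4 CPM in BRX 1 and at 8.10 in BRX 2. The BRXL2 libraries held 17.4 and 8.27 CPM, and the myrBRX libraries 8.58 and 14.0. Apart from BRX 1, the 5 remaining libraries lay between 8.10 and 17.4 CPM, and all 3 lines overlapped. The line means were 32.8 ± 34.9 CPM for BRX, 12.8 ± 6.45 for BRXL2 and 11.3 ± 3.86 for myrBRX. The log2 fold change was -1.35 ± 1.00 for BRXL2 against the libraries labelled BRX (adjusted p = 0.753, edgeR), -1.53 ± 1.00 for myrBRX against them (0.488) and -0.18 ± 0.98 for myrBRX against BRXL2 (0.959). Without BRX 1 the first was 0.66 and the second 0.48, so the direction of both was that of 1 library. With any 1 library left out, the 3 values spanned -2.16 to 0.66, -2.34 to 0.48 and -0.62 to 0.45.

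BASL and POLAR did not keep a fixed proportion. Per kilobase, POLAR stood at 10 and 8.44 times BASL in BRX 1 and BRX 2, at 1.37 and 3.76 times in the BRXL2 libraries and at 14.7 and 2.77 times in the myrBRX libraries. This ratio is taken within a library and does not depend on the scaling. It was higher in both libraries labelled BRX than in both BRXL2 libraries, and the myrBRX libraries lay on either side. Over the 6 libraries, which share these lines and their depth, log2 CPM of the pair correlated at r = 0.65, and over the 5 libraries without BRX 1 at r = -0.63; both are descriptions.

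BRX 1, the library with the highest POLAR and BASL, also had the highest summed level of several marker lists, though not of each gene in them. The summed level of the 9 epidermal markers was 6650 CPM in BRX 1 and 2140 in BRX 2, 1220 to 1620 in BRXL2 and 1050 to 1870 in myrBRX, and no marker was at 0. In BRX 1, PDF1 (2930 CPM) and FDH (2510) made most of this sum; 5 of the 9 were highest there, and LTP1, at 18.4 CPM, was lowest there. The 15 stomatal lineage regulators summed to 2390 CPM in BRX 1 and 1340 in BRX 2, 985 to 1360 in BRXL2 and 452 to 648 in myrBRX, and 7 of the 15 were highest in BRX 1. The 15 genes of the G2/M phase summed to 3380 CPM in BRX 1 and 1320 in BRX 2, 482 to 1230 in BRXL2 and 134 to 141 in myrBRX, with none at 0. Of these, 9 of 15 were highest in BRX 1, where AUR2 alone stood at 1600 CPM. POLAR did not follow the G2/M sum in myrBRX 1, where POLAR was second highest and the G2/M sum second lowest. The 13 phloem markers summed to 627 to 1100 CPM in BRXL2, where POLAR was lowest, and to 5.52 to 13.9 in the other 4 libraries, in which 4 to 7 of the 13 were at 0, NAC045 and NAC086 in each. In BRXL2 2, NAC045 was at 0 as well, and SUC2 did not follow the sum, at 1.02 and 3.08 CPM in BRXL2 and 2.08 to 10.1 elsewhere. The 11 guard cell markers summed to 99.4 to 144 CPM in the libraries labelled BRX, with GORK, HT1, ALMT12 and SCAP1 at 0 in both. KAT2 was also at 0 in BRX 1, and KAT1 in BRX 2. The same 11 markers summed to 166 to 582 in BRXL2, with GORK and HT1 at 0, and to 443 to 960 in myrBRX, with GORK at 0. TGG1 made most of this sum in every library (891 CPM in myrBRX 1 and 385 in myrBRX 2), while TGG2 was lowest in myrBRX, at 0.0301 and 0.0781 CPM. The 7 mesophyll markers summed to 303 to 1050 CPM over all libraries, highest in BRX 1, and none was at 0. The part of these differences in the levels of POLAR and BASL was not tested.

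**Figure D2:**
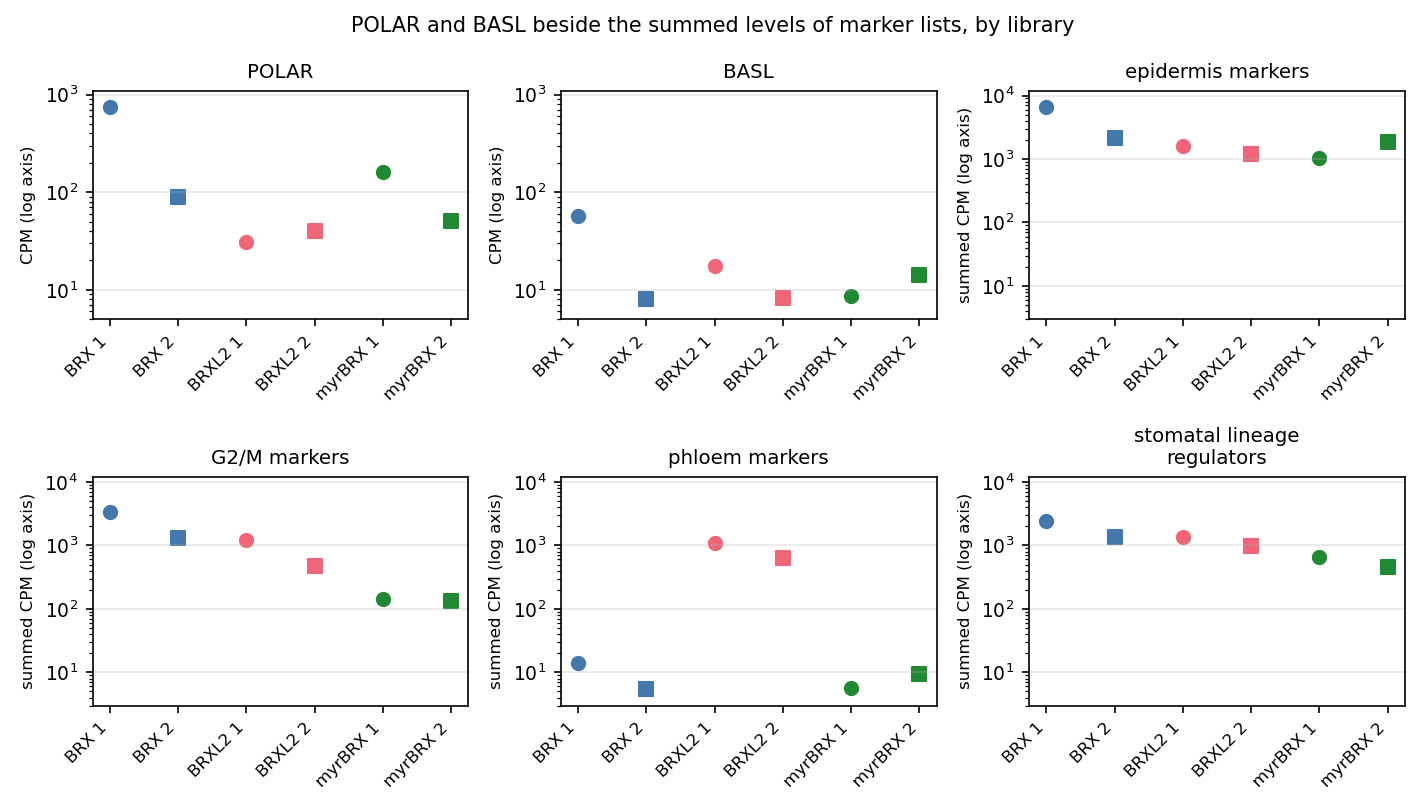
POLAR and BASL (CPM) and the summed levels of 4 gene lists (summed CPM) in each library, all on log axes, coloured by labelled line, with circles for replicate 1 and squares for replicate 2. BRX 1 is highest in every panel but the phloem markers, which stand at 627 to 1100 summed CPM in BRXL2 and 5.52 to 13.9 elsewhere.

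Among the phosphatases, BSL1 was highest in BRXL2. It stood at 32.9 and 54.0 CPM in the BRXL2 libraries, 18.8 and 30.5 in BRX 1 and BRX 2, and 6.32 and 19.4 in the myrBRX libraries. Both BRXL2 libraries were above the other 4, and the libraries labelled BRX overlapped those of myrBRX. The log2 fold change between myrBRX and BRXL2 was -1.76 ± 0.86 (adjusted p = 0.431, edgeR), 0.82 ± 0.84 for BRXL2 against the libraries labelled BRX (0.844) and -0.94 ± 0.84 for myrBRX against them (0.625). When 1 library was left out these spanned -2.79 to -1.16, 0.42 to 1.21 and -1.95 to -0.35.

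BSL3 showed another order. It stood at 42.8 and 34.7 CPM in the myrBRX libraries, 20.2 and 21.4 in BRX 1 and BRX 2, and 12.8 and 19.0 in the BRXL2 libraries, and no line overlapped another. Such separation was common: 33.2% of all genes tested did not overlap between BRXL2 and BRX, 49.1% between myrBRX and BRX and 49% between myrBRX and BRXL2. The share of genes that separate all 3 lines was not taken. The replicates of BSL3 were the closest of the set over the 3 lines: the higher library of a line exceeded the lower by 1.06 to 1.48 times. The line means were 38.7 ± 5.73 CPM for myrBRX, 20.8 ± 0.865 for BRX and 15.9 ± 4.32 for BRXL2 (SD, n = 2). The log2 fold change between myrBRX and BRXL2 was 1.28 ± 0.77 (adjusted p = 0.52, edgeR), 0.90 ± 0.76 for myrBRX against the libraries labelled BRX (0.605) and -0.39 ± 0.76 for BRXL2 against them (0.935). With 1 library left out these spanned 1.03 to 1.59, 0.74 to 1.04 and -0.70 to -0.14.

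BSL2, the close relative of BSL3, varied most in BRXL2, at 4.42 CPM in BRXL2 1 and 27.1 in BRXL2 2. It stood at 37.3 and 20.14 CPM in BRX 1 and BRX 2 and at 30.7 and 29.0 in the myrBRX libraries. Outside BRXL2 1 the range was 20.14 to 37.3 CPM, and the libraries labelled BRX overlapped both other lines. The log2 fold change between myrBRX and BRXL2 was 0.92 ± 0.93 (adjusted p = 0.724, edgeR), which was 0.14 without BRXL2 1 and 2.75 without BRXL2 2 (adjusted p = 0.434). It was -0.87 ± 0.93 for BRXL2 against the libraries labelled BRX (0.854), with -0.09 without BRXL2 1 and -2.70 without BRXL2 2 (adjusted p = 0.833, edgeR). Both values without BRXL2 2 had an unadjusted p under 0.05. For myrBRX against the libraries labelled BRX it was 0.05 ± 0.92 (0.989).

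**Figure D3:**
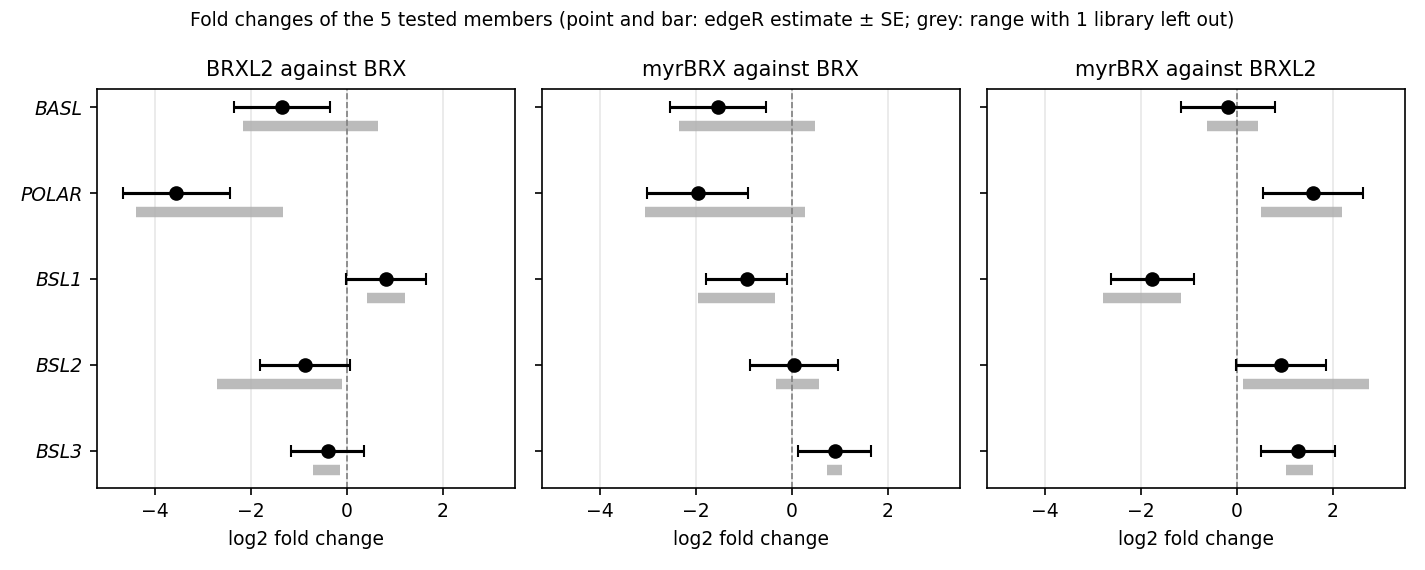
Log2 fold changes of the 5 tested genes in the 3 comparisons (points, edgeR estimates; black bars, ± SE; grey bars, lowest to highest estimate with 1 library left out). POLAR has the lowest value, -3.55, in BRXL2 against BRX, and the grey bars of BASL cross 0 in every panel while those of BSL1 and BSL3 do not.

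The libraries of the lines were also compared without a model. Between BRXL2 and the libraries labelled BRX, 3 of 5 members did not overlap (POLAR and BSL3 lower, BSL1 higher in BRXL2), against 33.2% of all genes tested. Between myrBRX and the libraries labelled BRX it was 1 of 5 (BSL3 higher), against 49.1%. Between myrBRX and BRXL2 it was 4 of 5 (POLAR, BSL2 and BSL3 higher, BSL1 lower in myrBRX), against 49% of all genes. The median log2 fold changes of the 5 members were -0.87, -0.94 and 0.92, and those of all genes 0.03, -0.03 and -0.15. The median absolute log2 fold changes of all genes were 0.97, 1.25 and 1.15. These ignore direction, so the signed medians of the members cannot be set against them. Members went in both directions in each comparison. The comparisons share libraries, so these values are not independent of each other.

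The share of each gene in the counts of the phosphatase family was also taken. The 4 genes together stood at 76.4 and 72.1 CPM in BRX 1 and BRX 2, 50.2 and 100.1 in BRXL2 and 79.8 and 83.1 in myrBRX, a range of 1.99 times. BSL1 held 65.6% of the family's counts in BRXL2 1 (95% exact Clopper-Pearson interval 63.6 to 67.5) and 54.0% in BRXL2 2 (52.4 to 55.6). It held 24.6% in BRX 1 (22.9 to 26.3), 42.3% in BRX 2 (40.3 to 44.4), 7.92% in myrBRX 1 (6.92 to 9.02) and 23.4% in myrBRX 2 (21.9 to 24.9). The 3 lines did not overlap in this share, although the intervals of BRX 1 and myrBRX 2 did. How often shares in other gene families separate the lines was not tested. The intervals cover counting error within a library only, not the spread between libraries. The RNA was amplified and no molecular identifiers mark the original molecules, so the intervals may be too narrow even for that error.

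BSL3 held the largest share in both myrBRX libraries, 53.6% (51.7 to 55.5) and 41.7% (40 to 43.5), and 18.9% to 29.7% in the other 4. BSL2 ranged from 8.82% (7.70 to 10) in BRXL2 1 to 48.9% (46.9 to 50.8) in BRX 1. BSU1 held 0.0799% in BRX 1 (0.00968 to 0.288) from its 2 counts. For BSL1 the mean share was 59.8 ± 8.18% in BRXL2, 33.5 ± 12.5% under the label BRX and 15.6 ± 10.9% in myrBRX (SD, n = 2). These shares do not depend on how libraries are scaled, and they were not tested between lines.

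**Figure D4:**
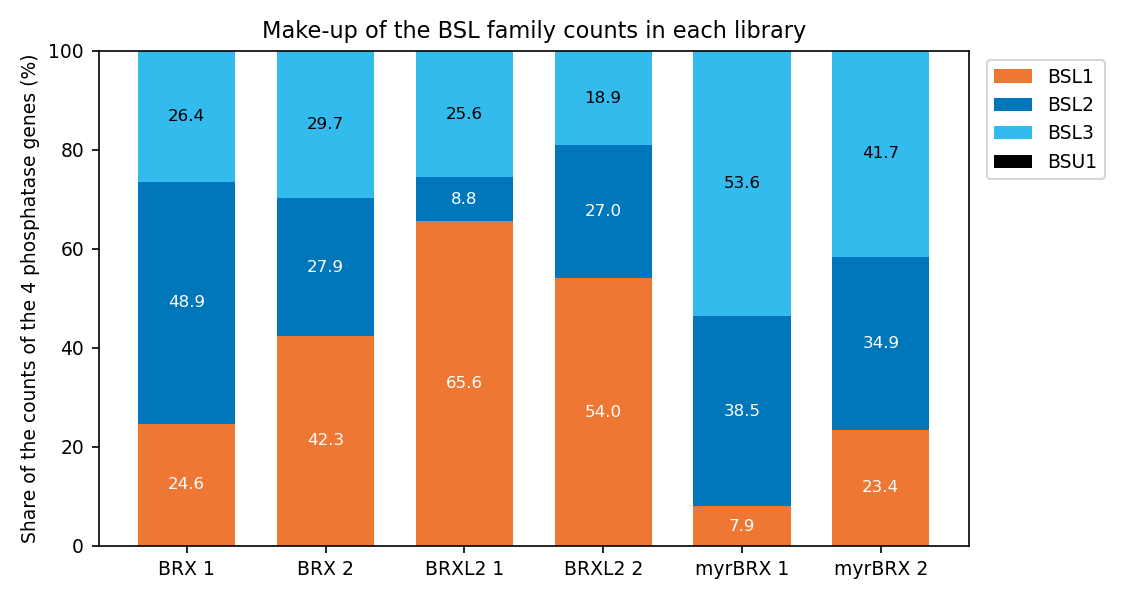
Share of the counts of the 4 phosphatase genes held by each gene (%, stacked bars) in each library, not scaled for transcript length. BSL1 holds 65.6% and 54.0% in the BRXL2 libraries, BSL3 holds 53.6% and 41.7% in the myrBRX libraries, and BSU1 is too small to see.

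By correlation of log2 CPM over the 6 libraries, among 7909 genes whose log2 CPM averaged 3 or more, the genes most like BASL were WIP1 (r = 0.997), a nuclear envelope protein gene, BRI1 (0.992), the brassinosteroid receptor gene, and RPL4 (0.987). BRI1 stood at 310 CPM in BRX 1 and at 16.9 to 59.2 in the other libraries, and its r with BASL was 0.96 without BRX 1. Those most like POLAR were PSAT1 (0.984), AT5G61170 (0.974) and ICE1 (0.968), the last a partner of the stomatal bHLH factors, with r = 0.87 without BRX 1. BSL1 was most like emb2394 (0.99), GRF9 (0.987), a 14-3-3 protein gene, and AT1G79210 (0.986). BSL2 was most like CER9 (0.999), a ubiquitin ligase gene, AT4G22770 (0.985) and AT3G60850 (0.981). BSL3 was most like SDRB (0.989), CIPK12 (0.988) and AT5G55100 (0.987). With 6 points and so many genes ranked, these values only describe the libraries at hand. Among the members, the strongest was BSL1 with BSL3, at r = -0.78.

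The partners of the complex were followed by list. For reference, 8.85%, 14.2% and 12.4% of all genes tested had an unadjusted p under 0.05 in BRXL2 against BRX, myrBRX against BRX and myrBRX against BRXL2, the order used for each list. In the BRX family, with which BASL is interdependent, 0 of 5 genes passed in any comparison (edgeR); at an unadjusted p under 0.05, 1, 3 and 1 did so. For the gene BRXL2 the log2 fold change was -6.43 ± 1.09 (adjusted p = 0.0747) in myrBRX against BRXL2, the line that carries its construct, and for BRXL4 -2.22 ± 1.05 (0.421). The median log2 fold changes of the family were 1.10, -1.84 and -0.98.

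In the YODA MAP kinase module, the cascade that BASL recruits, 6 of 7 genes were tested and 0 passed, with 0, 1 and 0 at an unadjusted p under 0.05. MKK7 did not pass the filter, with 13 counts in myrBRX 1, 3 in BRXL2 1 and 0 elsewhere. The kinase kinase gene MKK9 stood at a log2 fold change of 2.75 ± 1.14 for myrBRX against the libraries labelled BRX (adjusted p = 0.315, edgeR) and MKK5 of -1.49 ± 0.82 (0.419). The medians of the 6 tested genes were 0.14, -0.95 and -0.77 in the 3 comparisons.

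In brassinosteroid signalling, the pathway of BIN2 and the phosphatases, 9 of 11 genes were tested and 0 passed, with 0, 3 and 2 at an unadjusted p under 0.05. The kinase gene CDG1 was at 0 in every library and BKI1 held at most 2 counts. The medians of the tested genes were -1.10, -0.87 and -0.50. ATSK22, a relative of BIN2, stood at -2.97 ± 0.87 on the log2 scale in myrBRX against the libraries labelled BRX (adjusted p = 0.223, edgeR), and the transcription factor gene BES1 -2.46 ± 0.94 (0.291). BIN2 itself, the kinase that POLAR binds, ranged over 84.5 and 368 CPM in BRX 1 and BRX 2, 213 and 79.0 in BRXL2, and 257 and 311 in myrBRX. It was thus low in BRX 1, where POLAR was highest, but it was lowest in BRXL2 2, where POLAR was also low (40.1 CPM). In myrBRX 1, where BIN2 was at 257 CPM, POLAR was second highest (163 CPM). BIN2 was chosen as an example after its values were seen.

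Of the 15 stomatal lineage regulators, all were tested and 0 passed, with 3, 6 and 4 at an unadjusted p under 0.05 and medians of -0.16, -1.55 and -1.39. FLP, a MYB gene that ends the guard mother cell division, stood at a log2 fold change of -3.65 ± 0.83 for myrBRX against the libraries labelled BRX (adjusted p = 0.202, edgeR), and SCRM2, a bHLH partner of SPCH, -3.94 ± 1.08 (0.207). In that comparison 12 of the 15 were below 0 and 3 above, where 49.3% of all genes were above 0. Of the 5 members, POLAR, BASL and BSL1 were below 0, but POLAR and BASL were above it without BRX 1 (0.27 and 0.48). SCRM2 stood at 496 CPM in BRX 1 and 54.9 in BRX 2, so that it, like POLAR, was far higher in the first of these libraries. The likeness ended there, as SCRM2 was lowest in myrBRX (21.3 and 14.6 CPM) and POLAR in BRXL2. TMM (186 and 322 CPM) and ER (246 and 283 CPM) were higher in BRX 2 than in BRX 1.

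**Figure D5:**
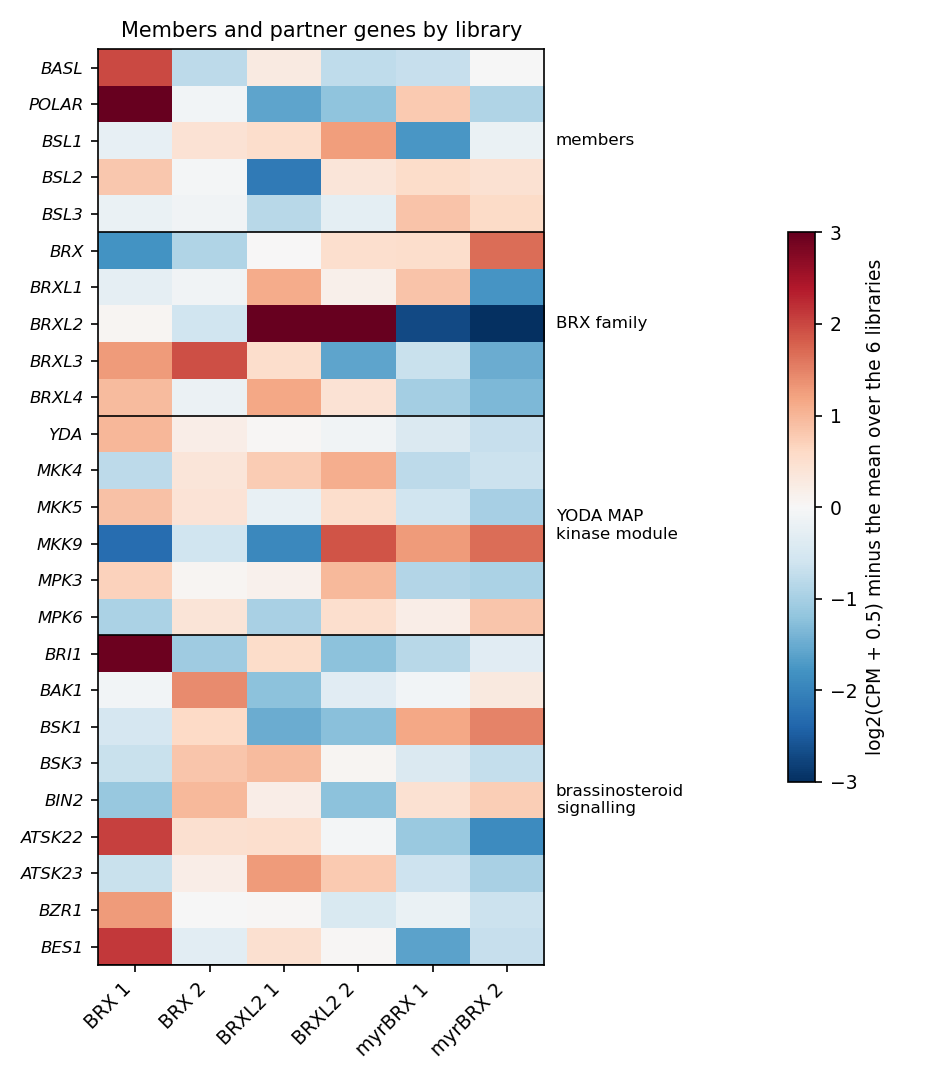
Log2(CPM + 0.5) of the 5 tested members and of the tested genes of the BRX family, the YODA module and brassinosteroid signalling in each library, minus the gene's mean over the 6 libraries (red, higher; blue, lower; values past 3 in either direction are drawn at the limit). BASL, POLAR and BRI1 are highest in BRX 1, and BSL1 and BSL3 are opposite in colour in the BRXL2 and myrBRX libraries.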

How the data were processed

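The deposited values are raw counts per locus, whole numbers without normalisation, 1 library per table and no header. The submitters' processing notes name Bowtie2 and TAIR10; how reads were assigned to loci, and whether strand was used, is not given in the sources used here. Names and transcript lengths came from RefSeq's TAIR10.1 annotation, and the phosphatase coding sequences were aligned with mafft 7.526.

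Counts were analysed with edgeR 4.0.16 under R 4.3.3. Loci were filtered with filterByExpr (minimum 10 counts, 18174 kept) and scaled by TMM. A quasi-likelihood fit held 1 coefficient per line and all 6 libraries (3 residual degrees of freedom). P-values were two-sided and adjusted by Benjamini-Hochberg over all genes tested, and each SE is the fitted log2 fold change divided by the square root of its F statistic. The code was checked on simulated counts that varied less between replicates than these do, which says nothing of its power here. Alternatives were RLE factors, no filter, DESeq2 1.42.0, limma-voom (limma 3.58.1), a replicate block, and leaving out each library with the gene set kept. The tables of a line were no copies of each other (chi-square per locus 532.7 to 814.6).

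Members and lists were chosen with earlier results of these data known. Of 96 list entries, 93 matched their name in the reference; the MASS list, with 0 matches, was not used. Members were always named, with the 3 genes of highest correlation to each. For each list of partners without a gene past the threshold, the 2 genes of lowest p were named, in the comparison with the lowest p.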

Additional observations from a re-analysis of the deposited data

How the results depend on the processing

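Of 165 alternative fold changes of the 5 tested members, 155 kept their direction and their side of the threshold, 8 changed direction and 2 passed the threshold that they had missed. Members called numbered 1 in place of 0 without a filter and with DESeq2, each in BRXL2 against BRX and in the test of any difference; in each case it was POLAR. The number of all genes called in BRXL2 against BRX, myrBRX against BRX, myrBRX against BRXL2 and any difference was 17, 0, 9 and 41. It was 403, 724, 657 and 1423 without a filter and 667, 1493, 1149 and 1453 with DESeq2. RLE factors gave 5 in myrBRX against BRXL2, and limma-voom gave 0 in all 4, with 1310, 2561, 2285 and 2227 at an unadjusted p under 0.05. The cause of these differences between tools was not tested.

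Same-numbered libraries deviated together at r = 0.127, 0.058 and 0.121 between pairs of lines. The labels give these libraries a common number and name no batch, and whether they share a batch was not tested. A fit with a replicate block called 33, 29, 42 and 266 genes and no member; BSL2 in myrBRX against BRX was at -0.01 and BASL in myrBRX against BRXL2 at 0.13.

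With 1 library left out, its line keeps a lone sample assumed to vary like the rest. The numbers of genes called then ranged over 0 to 28, 0 to 3, 0 to 31 and 23 to 176, with no member among them. BASL ranged from -2.16 to 0.66, -2.34 to 0.48 and -0.62 to 0.45 in the 3 comparisons, and in myrBRX against BRX, POLAR ranged from -3.05 to 0.27 and BSL2 from -0.32 to 0.57. Scaling without factors put BSL2 in myrBRX at 26.6 CPM and BSL3 in BRX at 21.9 CPM. Only BSU1 among the members held too few counts to compare, at most 2 in a library.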
